A study of Homo sapiens with 2 samples.

Results

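The genes described here are 9 direct response genes of the TGF-β and BMP pathways, ID1, ID2, ID3, SKIL, SKI, PMEPA1, TGFBI, JUNB and LDLRAD4, taken by name from the 58174 genes of the deposited tables. RNA-seq had been performed on PLC-8024, a human HCC cell line. In 1 library the cells carried a control vector (PLC-8024-CTR), and in 1 they overexpressed human GDF1 from a lentiviral vector (PLC-8024-GDF1). Cells stably transduced with GDF1 had been selected with puromycin. Whether the control line was treated alike, and whether each line was a single clone, is not given in the sources used here. Each value is a TPM, a measure of transcript abundance that accounts for gene length and library total, so genes can be compared within a library, but the sequencing depth cannot be read from it and no counting error is given. With 1 library per condition there was no replicate spread, no test was made, and every difference below is a difference between these 2 libraries. In bulk RNA, fewer cells with a transcript and less of it per cell cannot be told apart.

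Ligands of the TGF-β superfamily bind pairs of serine/threonine kinase receptors that phosphorylate receptor SMADs. TGF-β, activin, nodal and GDF1 act on SMAD2 and SMAD3, while BMPs act on SMAD1, SMAD5 and SMAD9, and both branches share SMAD4 and act on target genes within hours. The ID genes are the classical targets of the BMP branch. SKIL, PMEPA1, LDLRAD4, TGFBI and JUNB are induced by the SMAD2/3 branch in many epithelial cells, and SKI, SKIL, PMEPA1 and LDLRAD4 in turn restrain SMAD signalling. The comparison asks which of these targets differ in level between cells with and without forced expression of a SMAD2/3-branch ligand.

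The check of the overexpressed gene rested on its locus. GDF1 had 2.1 TPM in PLC-8024-CTR against 4.64 TPM in PLC-8024-GDF1, and CERS1, whose exons contain the GDF1 coding sequence, had 13.3 and 9612 TPM. Of 8 hepatocyte markers, 8 were listed at 1 TPM or more in at least 1 library, with summed TPM of 8496 and 6159, and 4 of them were lower by over 2-fold in PLC-8024-GDF1, against 9.61% of all genes tested. This was 2 of 8 after rescaling of PLC-8024-GDF1 or removal of the trend on GC content described below, against 6.85% and 5.38% of all genes. KRT8 and KRT18 were the 2 hepatocyte markers with a positive log2 change (0.32 and 0.28). The 7 fibroblast markers summed to 3.80 and 2.61 TPM, of which COL3A1 gave 3.22 and 1.23 TPM. COL1A2, PDGFRA and DCN were at 0.0001 TPM, the value that stands in for 0. The 4 endothelial markers summed to 23.5 and 22.4 TPM, nearly all of it PECAM1, with VWF and KDR at 0.0001 TPM. The 5 leukocyte markers summed to 33.6 and 13.7 TPM, nearly all of it CD68, with PTPRC and MS4A1 at 0.0001 TPM. The part of the hepatocyte and CD68 differences in the results below was not tested.

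Of the 9 response genes, 8 reached 1 TPM in at least 1 library, and these spanned a wide range of abundance. ID1, ID3 and JUNB were among the most abundant transcripts of the cells, TGFBI and ID2 were intermediate, and SKI, SKIL and LDLRAD4 were listed at under 8 TPM in PLC-8024-CTR. PMEPA1 was listed at 0.0001 TPM in both libraries. Each change is the log2 ratio of TPM + 1 in PLC-8024-GDF1 to TPM + 1 in PLC-8024-CTR, which understates changes of weakly expressed genes, and a gene is counted as higher or lower where this passes 2-fold. LDLRAD4 and TGFBI were higher by over 2-fold, none of the other 6 measured genes passed in either direction, and ID3 fell just short. Among all 14929 genes that reached 1 TPM in a library, 14.4% passed 2-fold, 4.82% as higher (720 genes) and 9.61% as lower (1434 genes). The median change of the 8 genes was 0.28, and that of all 14929 genes was -0.20. When PLC-8024-GDF1 was rescaled so that the plain ratio centred on 0, the median of all genes moved by 0.17 and the split of all genes to 1040 higher and 1022 lower, while 3 response genes were higher and 0 lower, against 6.97% higher and 6.85% lower of all genes (13.8% in either direction). With the trend on GC content removed, 3 were again higher and 0 lower, against 7.04% and 5.38% (12.4% in either direction). With a pseudocount of 0.1 TPM 2 genes were higher, against 7.82% higher and 15.5% lower of all genes (23.3% in either direction), and with the plain ratio 2 were higher, against 8.23% and 16.3% (24.6% in either direction).

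**Figure D1:**
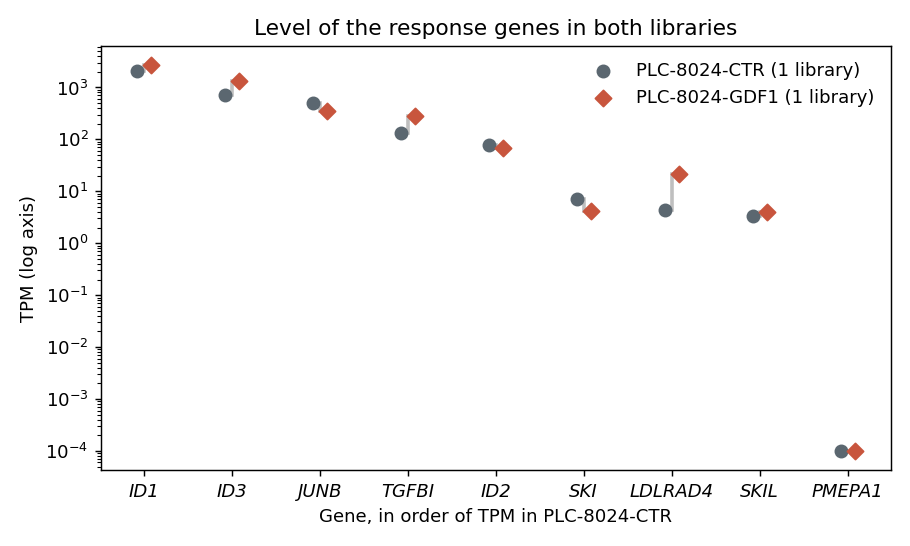
TPM (log axis) of each of the 9 response genes in PLC-8024-CTR (circles) and PLC-8024-GDF1 (diamonds), 1 library each, ordered by TPM in PLC-8024-CTR. ID1 has the highest level in both libraries, LDLRAD4 shows the widest gap between them (4.42 and 22.0 TPM), and PMEPA1 sits at 0.0001 TPM in both.

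The ID genes encode helix-loop-helix proteins without a DNA-binding region, which pair with E proteins and keep them off their target genes. ID1 (ENSG00000125968, chromosome 20 of GRCh37, 30193086 to 30194318, plus strand) had 2107 TPM in PLC-8024-CTR against 2680 TPM in PLC-8024-GDF1, with a log2 change of 0.35. It ranked 61st and 55th among all genes and made up 0.211% and 0.268% of all TPM. ID3 (ENSG00000117318, chromosome 1, 23884417 to 23885992, minus strand) was listed at 711.9 and 1335 TPM, a log2 change of 0.91 and a plain ratio of 1.88. Its difference was thus under the 2-fold mark, although only 881 of the 14929 genes had a larger increase, and it moved from rank 193 to rank 118. ID2 (ENSG00000115738, chromosome 2, 8818975 to 8824591, plus strand) was listed at 78.3 and 68.2 TPM, a log2 change of -0.20, the same as the median of all genes to 2 decimals.

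The ID genes therefore differed among themselves in level and in the size of the difference. In PLC-8024-CTR the ID1 level was 26.9 times that of ID2 and 2.96 times that of ID3, and in PLC-8024-GDF1 it was 39.3 and 2.01 times. ID4, the fourth gene of the family and another BMP target, was listed at 38.3 and 29.3 TPM, a log2 change of -0.38 that turned to 0.06 with the GC trend removed. Added up, ID1 to ID4 came to 2935 TPM in PLC-8024-CTR against 4112 TPM in PLC-8024-GDF1, with a log2 change of 0.49, and the share of ID3 in this sum went from 24.3% to 32.5%. The E proteins they bind were far less abundant as transcripts. TCF3, TCF4 and TCF12 summed to 21.2 and 13.9 TPM, of which TCF3 gave 19.0 and 12.1 TPM (log2 change -0.60). Of the 2 with at least 1 TPM, 0 passed 2-fold, against 14.4% of all genes. The summed ID level was 138.8 times the summed E protein level in PLC-8024-CTR and 296.9 times in PLC-8024-GDF1, a ratio within each library that does not depend on how the libraries were scaled.

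**Figure D2:**
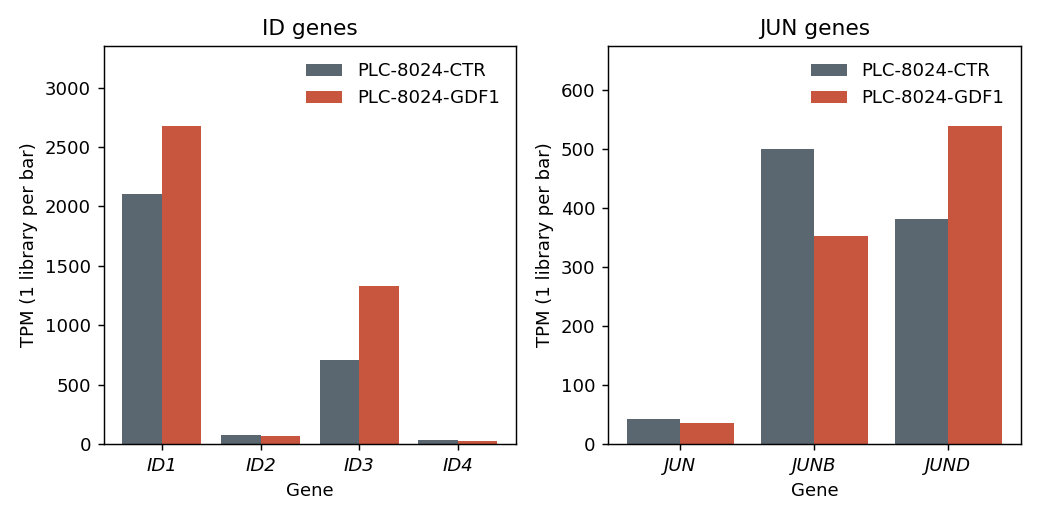
TPM of the ID genes (left) and the JUN genes (right) as bars from 0 in PLC-8024-CTR (grey) and PLC-8024-GDF1 (red), 1 library per bar. ID1 and ID3 are taller in PLC-8024-GDF1 while ID2 and ID4 are slightly shorter, and JUNB and JUND change places (500.8 and 382.1 TPM, then 352.2 and 539.6 TPM).

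The promoters of ID1 and ID3, the most abundant response genes, of TGFBI, which passed 2-fold, and of JUNB, which did not pass it, are shown so that their SMAD boxes can be compared. Each runs from 250 bases before to 50 bases after a transcription start of RefSeq (GRCh38.p14) and was found as 1 exact match on the same chromosome of GRCh37, whose coordinates are given. Capitals mark the SMAD box, the 4 letters GTCT or, on the other strand, AGAC.
ID1: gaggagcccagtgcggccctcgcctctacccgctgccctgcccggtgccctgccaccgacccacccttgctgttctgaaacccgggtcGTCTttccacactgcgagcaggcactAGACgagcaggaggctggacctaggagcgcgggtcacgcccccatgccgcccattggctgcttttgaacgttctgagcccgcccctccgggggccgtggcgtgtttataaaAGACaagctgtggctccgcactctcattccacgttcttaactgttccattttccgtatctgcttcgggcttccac
ID3: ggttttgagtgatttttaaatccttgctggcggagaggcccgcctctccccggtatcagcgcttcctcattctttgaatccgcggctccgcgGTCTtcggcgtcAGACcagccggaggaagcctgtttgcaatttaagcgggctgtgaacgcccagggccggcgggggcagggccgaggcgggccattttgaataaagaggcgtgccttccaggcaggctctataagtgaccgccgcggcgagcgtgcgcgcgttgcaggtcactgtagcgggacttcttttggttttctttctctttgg
TGFBI: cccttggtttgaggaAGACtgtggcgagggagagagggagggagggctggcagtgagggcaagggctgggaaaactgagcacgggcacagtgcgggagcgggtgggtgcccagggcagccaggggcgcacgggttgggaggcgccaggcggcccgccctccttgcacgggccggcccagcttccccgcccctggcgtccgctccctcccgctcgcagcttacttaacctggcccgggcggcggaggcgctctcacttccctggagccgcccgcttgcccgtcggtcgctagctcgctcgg
JUNB: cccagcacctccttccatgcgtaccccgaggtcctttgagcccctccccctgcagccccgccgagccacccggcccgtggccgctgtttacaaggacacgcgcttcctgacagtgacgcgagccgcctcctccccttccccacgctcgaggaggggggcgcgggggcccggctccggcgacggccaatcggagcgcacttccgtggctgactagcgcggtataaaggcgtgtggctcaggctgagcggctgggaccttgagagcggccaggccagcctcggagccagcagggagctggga
The windows lie at chr20:30192842-30193141 (plus strand, ID1), chr1:23885943-23886242 (minus strand, ID3), chr5:135364427-135364726 (plus strand, TGFBI) and chr19:12902050-12902349 (plus strand, JUNB). ID1 held 3 SMAD boxes, at -162, -136 and -25 from the start, and ID3 held 2, at -158 and -146. ID2 and SKIL, not shown, held 2 and 3. TGFBI held 1, at -235, and JUNB held 0. The box is short and common, since 84.0% of 35116 RefSeq promoter windows of the same length held at least 1, with a median of 2. GGCGCC, a GC-rich motif bound by BMP SMADs that reads the same on both strands and does not overlap the SMAD box, was in the TGFBI window, in the SKIL window and in 19.2% of all windows, but not in those of ID1, ID2, ID3 or JUNB. A match in these windows describes letters only, and bases further than 250 before the start were not searched. Windows were matched for 8 of the 9 genes. LDLRAD4 had 9 listed starts, 8 of which held a SMAD box and 1 of which held GGCGCC. PMEPA1 had 4 listed starts, 4 of which held a box and 1 of which held GGCGCC. Gene-level TPM does not say which start was used.

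TGFBI and LDLRAD4 were the response genes that were higher by over 2-fold. TGFBI encodes a secreted matrix protein that is strongly induced by TGF-β and binds integrins. TGFBI (ENSG00000120708, chromosome 5, 135364677 to 135399507, plus strand) had 134.8 TPM in PLC-8024-CTR against 287.3 TPM in PLC-8024-GDF1, with a log2 change of 1.09, with 583 genes showing a larger increase. LDLRAD4 encodes a membrane protein related to PMEPA1 that holds receptor SMADs away from the receptor. LDLRAD4 (ENSG00000168675, chromosome 18, 13217497 to 13652754, plus strand) was listed at 4.42 and 22.0 TPM, a log2 change of 2.08 and a plain ratio of 4.97. It had the widest difference of the response genes, 94 of the 14929 genes had a larger increase, and its rank by TPM moved from 9529 to 4067. TGFBI overlaps no other annotated gene of the tables, and the 13 genes of the tables that overlap LDLRAD4 on either strand were all listed at 0.0001 TPM in both libraries.

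**Figure D3:**
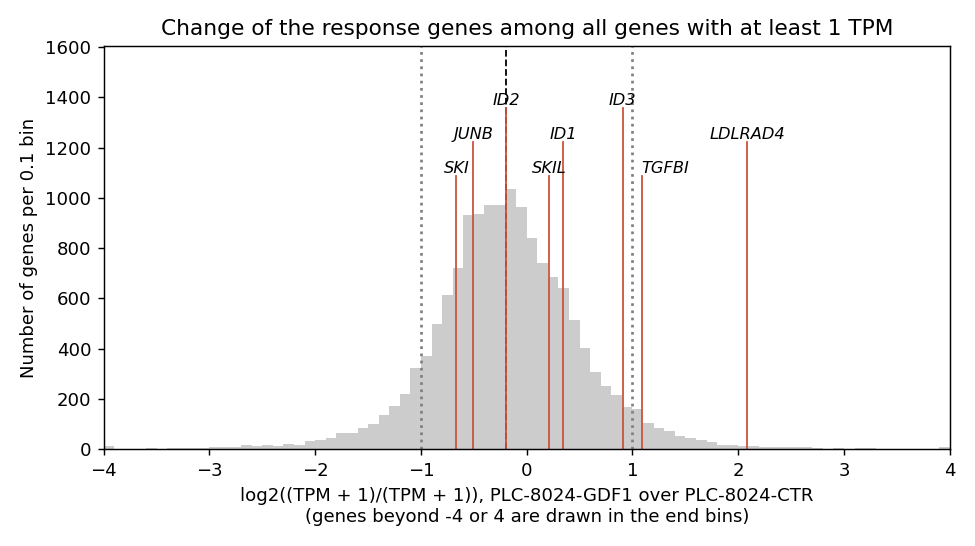
Histogram of the log2 change (TPM + 1, PLC-8024-GDF1 relative to PLC-8024-CTR) over the 14929 genes that reached 1 TPM, with the 8 measured response genes as red lines. The dashed line is the median of all genes (-0.20) and dotted lines mark 2-fold; LDLRAD4 and TGFBI lie to the right of the upper mark, ID3 just inside it, and ID2 on the median.

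PMEPA1, the relative of LDLRAD4, is likewise induced by TGF-β, and its protein recruits NEDD4-type ubiquitin ligases. PMEPA1 (ENSG00000124225, chromosome 20, 56223448 to 56286592, minus strand) was listed at 0.0001 TPM in both libraries, as was the antisense RNA NKILA that overlaps it. From TPM alone a true absence cannot be told apart from a level that was not estimated. Of the 7 NEDD4-family ligases, 6 reached 1 TPM and 0 passed 2-fold in either direction, against 14.4% of all genes. Their median log2 change was -0.37, which was -0.20 after rescaling and turned to 0.09 with the GC trend removed. NEDD4L had the highest level, at 35.4 and 52.1 TPM (log2 change 0.55). Of 5 integrin genes whose proteins are known to bind TGFBI, 4 reached 1 TPM. Of these, 0 were higher and 2 were lower by over 2-fold, against 4.82% and 9.61% of all genes. ITGB1, the β1 subunit shared by many integrins, was listed at 57.6 and 12.2 TPM (log2 change -2.15). ITGA3, an α subunit that pairs with β1, was listed at 7.88 and 2.96 TPM (log2 change -1.16). ITGB5, the most abundant, was listed at 147.2 and 134.7 TPM (log2 change -0.13, and 0.079 after rescaling and 0.041 with the GC trend removed). ITGAV was listed at 0.78 and 1.87 TPM (log2 change 0.69), reached 1 TPM only in PLC-8024-GDF1 and was named after its values were seen. Of the 4 measured integrin transcripts, 2 were thus lower by over 2-fold, while ITGB5 and ITGAV were within it.

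SKI and SKIL encode related corepressors that bind SMAD complexes on DNA, and SKIL is itself a SMAD target. Both were at low levels and differed in opposite directions. SKI (ENSG00000157933, chromosome 1, 2158827 to 2241652, plus strand) had 7.11 TPM in PLC-8024-CTR against 4.12 TPM in PLC-8024-GDF1, with a log2 change of -0.67. SKIL (ENSG00000136603, chromosome 3, 170075130 to 170114623, plus strand) was listed at 3.29 and 3.98 TPM, a log2 change of 0.21. Neither passed 2-fold. Within a library the level of SKI was 2.16 times that of SKIL in PLC-8024-CTR and 1.03 times in PLC-8024-GDF1, so the higher level of SKI in the control library was nearly gone in the other. Of 9 genes for partners of SKI and SKIL or for ligases that degrade them, 8 reached 1 TPM. Of these, 0 were higher and 2 were lower by over 2-fold, against 4.82% and 9.61% of all genes. The median log2 change was -0.75, and -0.32 with the GC trend removed. HDAC1, a histone deacetylase of the corepressor complex, was listed at 86.9 and 29.9 TPM (log2 change -1.51). NCOR1, a scaffold of that complex, was listed at 21.5 and 10.2 TPM (log2 change -1.01), and was within 2-fold after rescaling (-0.82) or with the GC trend removed (-0.65).

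JUNB encodes an AP-1 subunit that is induced early by TGF-β and by growth factors. JUNB (ENSG00000171223, chromosome 19, 12902300 to 12904129, plus strand) had 500.8 TPM in PLC-8024-CTR against 352.2 TPM in PLC-8024-GDF1, with a log2 change of -0.51 that did not pass 2-fold. HOOK2, which overlaps it on the opposite strand (the strand setting of the counting is not given in the sources used here), was listed at 29.4 and 28.8 TPM. Of the 8 other AP-1 genes, 8 reached 1 TPM and 0 passed 2-fold, against 14.4% of all genes. Their median log2 change was -0.20, equal to that of all genes to 2 decimals, and 0.0039 with the GC trend removed. JUND, the most abundant of them, was listed at 382.1 and 539.6 TPM (log2 change 0.50, but 0.11 with the GC trend removed, at 69.9% GC). In TPM as deposited, JUN, JUNB and JUND added up to 926.0 and 928.3 TPM, a log2 change of 0.0036 that holds for this scaling only. Within that sum the JUNB share went from 54.1% to 37.9% and the JUND share from 41.3% to 58.1%, and the order of the pair was reversed.

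The other SMAD2/3 targets did not move as TGFBI and LDLRAD4 did. Of 24 further genes known as targets of this branch, 18 reached 1 TPM, 0 were higher and 8 were lower by over 2-fold, with a median log2 change of -0.88. The 8 lower genes are 44.4% of the 18, against 9.61% of all genes. Among all genes 4.82% were higher, so 0 higher among 18 is near the background. SMAD7, the inhibitory SMAD of the feedback loop, had 3.77 TPM in PLC-8024-CTR against 0.43 TPM in PLC-8024-GDF1 (log2 change -1.74). SMAD7 thus had 8.84 times the TPM in the control library, the only library in which it reached 1 TPM. RHOB, a small GTPase, was listed at 81.1 and 31.9 TPM (log2 change -1.32). FN1, the matrix protein fibronectin, was listed at 87.5 and 38.1 TPM (log2 change -1.18). TGIF1, a SMAD corepressor, was listed at 94.8 and 42.0 TPM (log2 change -1.16). BHLHE40, CDKN2B and SNAI1 were also lower by over 2-fold and were named after their values were seen. The count of lower genes was 3 instead of 8 (16.7%) with PLC-8024-GDF1 rescaled or the GC trend removed, against 6.85% and 5.38% of all genes. Under both, 0 were higher, against 6.97% and 7.04% of all genes. FN1 (-0.98 and -0.75), TGIF1 (-0.95 and -0.74), BHLHE40 (-0.90 and -0.83), CDKN2B (-0.98 and -0.70) and SNAI1 (-0.86 and -0.97) were then within 2-fold. With a pseudocount of 0.1 TPM the count was 10 (55.6%) and with the plain ratio 11 (61.1%), against 15.5% and 16.3% of all genes.

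The other BMP targets included 1 gene past 2-fold. Of 15 further genes of this branch, 8 reached 1 TPM, of which 4 had a positive and 4 a negative log2 change. With 1 higher and 0 lower by over 2-fold, against 4.82% and 9.61% of all genes, 1 call among 8 genes is near the background. The median log2 change was 0.14 (0.34 after rescaling and 0.30 with the GC trend removed). The gene that was higher was ATOH8, a helix-loop-helix factor that BMP induces in hepatocytes, at 0.50 and 4.38 TPM (log2 change 1.84). ATOH8 reached 1 TPM only in PLC-8024-GDF1, so it was counted only through the library in which it was higher. BAMBI, a decoy receptor induced by both branches, had the highest level and was listed at 85.8 and 104.9 TPM (log2 change 0.29). The difference between this list and the SMAD2/3 list was not tested, since both come from the same 2 libraries.

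**Figure D4:**
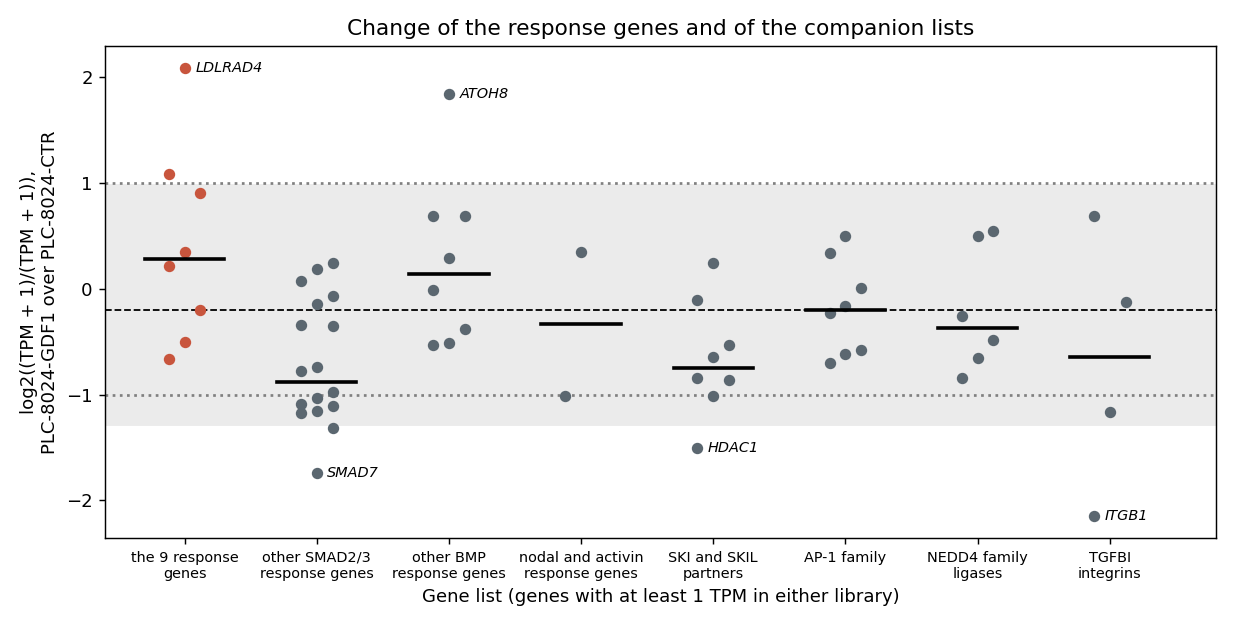
Each point is the log2 change (TPM + 1, PLC-8024-GDF1 relative to PLC-8024-CTR) of 1 gene that reached 1 TPM, for the 9 response genes (8 shown, red) and 7 companion lists (grey; 1 of the 18 other SMAD2/3 targets is not drawn), with medians over each whole list as thick lines. The dashed line is the median of all genes, the band spans the 5th to 95th percentile of all genes and dotted lines mark 2-fold; the median of the other SMAD2/3 targets (-0.88) lies below and those of the response genes (0.28) and other BMP targets (0.14) above the median of all genes.

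A trend of the log2 change on the GC content of the longest transcript was fitted over 11792 protein-coding genes that reached 1 TPM in a library. The value of the fitted trend is given for each measured response gene. The trend at LDLRAD4 (45.4% GC) was -0.36 and at TGFBI (50.6% GC) -0.26, so that with the trend removed their log2 changes were 2.45 and 1.35. At ID1 (58.6% GC) and ID3 (56.7% GC) it was -0.06 and -0.11, leaving 0.41 and 1.02. At JUNB (64.9% GC) and SKI (61.4% GC) it was 0.16 and 0.03, leaving -0.66 and -0.69, and at SKIL (35.8% GC) -0.47, leaving 0.69. Each of these 7 genes was therefore further from 0 with the trend removed than without it. ID2 (53.3% GC) lay on the trend at -0.20, leaving 0.0036.

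**Figure D5:**
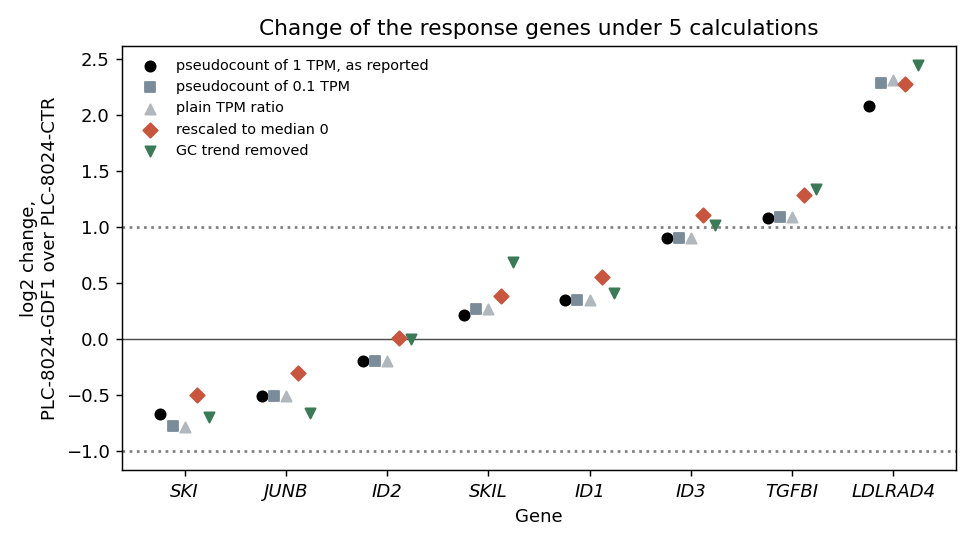
The log2 change between the libraries for the 8 measured response genes under 5 calculations (symbols), with dotted lines at 2-fold. LDLRAD4 and TGFBI stay above 2-fold under all 5, ID3 passes it when the library is rescaled (1.11) or the GC trend removed (1.02), and ID2 crosses 0 under the same pair of settings.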

How the data were processed

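RNA-seq was available for 1 PLC-8024-CTR and 1 PLC-8024-GDF1 library. Poly(A) RNA had been sequenced in pairs on a HiSeq XTen. Per the submitters' notes, the authors used FastQC 0.11.2, Trimmomatic 0.36, HISAT2 2.1.0 on hg19, bedtools 2.26.0 and StringTie 1.3.3b, and deposited TPM per gene, with 0.0001 in place of 0. The methods name a RefSeq annotation, whereas the tables list Ensembl identifiers. TPM summed to 999990 and 999995 and keeps no depth.

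Changes were computed with a pseudocount of 1 TPM over genes reaching 1 TPM in a library (14138 and 13658 genes per library). The members and lists were chosen with earlier results of these data known. Named genes were the 9 members, GDF1 and CERS1, and, per companion list, up to 5 genes past 2-fold and the gene with the highest mean TPM, with overlapping genes; marker genes were named after their values were seen, except as a list. A list member that the rule names is not reported here. 2 list symbols were matched by identifier. Positions and GC content of the longest transcript came from GENCODE v44 on GRCh37, which held 55726 of 58174 identifiers. Promoters came from RefSeq. The GC trend was a lowess fit (span 0.3) over 11792 protein-coding genes. Alternatives were pseudocounts, TPM minimums, rescaling of PLC-8024-GDF1 by 1.15, the GC trend and addition of same-strand overlapping genes. The calculations were tested on simulated data. Python 3.11.15, numpy 2.4.6, pandas 2.3.3, statsmodels 0.14.6 and matplotlib 3.10.9 were used.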

Additional observations from a re-analysis of the deposited data

How the results depend on the processing

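No paired analysis was possible because there was a single library of either kind. Directions, the 2-fold mark and, for counts, a margin of 1.5 times were compared. LDLRAD4 and TGFBI stayed higher by over 2-fold under each of their 5 alternatives (2.08 to 2.45 and 1.09 to 1.35). ID1 and SKIL stayed positive and SKI and JUNB negative, within 2-fold, under the same 5. ID3 passed 2-fold with the library rescaled (1.11) and with the GC trend removed (1.02). ID2 reversed to 0.0081 and 0.0036 under these, and ITGB5 to 0.079 and 0.041 in the same order; these settings move the median of all genes up by 0.17 and 0.24. Adding same-strand overlapping genes changed no call, since they were listed at 0.0001 TPM.

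The alternatives for the companion lists were chosen after the data were seen. With rescaling or the GC trend removed, the genes lower by over 2-fold numbered 3 instead of 8 for the other SMAD2/3 targets, 0 instead of 1 for the nodal and activin targets and 1 instead of 2 for the SKI and SKIL partners. The share of all genes that were lower also fell, from 9.61% to 6.85% and 5.38%. With a pseudocount of 0.1 or the plain ratio, 4 of 8 SKI and SKIL partners and 1 of 6 NEDD4-family ligases were lower, against 15.5% and 16.3% of all genes. This ligase, SMURF2, is on both lists and is counted in each. SMURF2 and RNF111, the genes these settings added to the partner count, reached 1 TPM only in PLC-8024-CTR. They were thus counted only through the library in which they were higher, and were named after their values were seen. Under the same settings 2 of 8 other BMP targets and 1 of 4 TGFBI integrins were higher, against 7.82% and 8.23% of all genes. These were ATOH8, NOG and ITGAV, the last 2 named after their values were seen. Each reached 1 TPM only in PLC-8024-GDF1, so it was counted only through the library in which it was higher. The GC trend removed also gave ITGAV as higher, against 7.04% of all genes. Depth is not known from TPM, so no value here has a known counting error.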

Other observations

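The nodal and activin branch, which uses the same SMADs as GDF1, had few measurable targets in these cells. Of 12 genes on this list, 2 reached 1 TPM and 7 were listed at 0.0001 TPM in both libraries. FST, the activin antagonist follistatin, had 304.0 TPM in PLC-8024-CTR against 150.2 TPM in PLC-8024-GDF1 (log2 change -1.01). Of the 2 measured genes 1 was thus lower by over 2-fold and 0 were higher, against 9.61% and 4.82% of all genes. With the library rescaled the log2 change of FST was -0.81, and with the GC trend removed it was -0.64, both under the 2-fold mark.

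The genes around the response genes were also examined, over other genes that reached 1 TPM in a library and lie within 500 kb. For comparison, 4.82% of all genes that reached 1 TPM were higher and 9.61% lower by over 2-fold. Near LDLRAD4 there were 7 such genes, with log2 changes from -0.87 to 0.66 and 0 past 2-fold. Near TGFBI there were 3, with log2 changes from -0.61 to -0.07 and 0 past 2-fold. Near ID1 there were 6, from -0.96 to 0.02, and 0 passed. Near ID3 there were 19, of which 1 was higher and 2 were lower by over 2-fold, with log2 changes from -4.25 to 1.58 and a median of -0.08. Near JUNB there were 41, of which 4 were higher and 1 was lower, from -1.48 to 3.38, and near SKI 19, of which 3 were higher and 0 lower, from -0.56 to 1.77. Near SKIL there were 6 and near PMEPA1 3, with 1 lower in each, from -1.03 to 0.20 and from -1.35 to 0.16. Near ID2 there were 3, from -0.43 to -0.09, and 0 passed. The differences of LDLRAD4 and TGFBI were each larger than that of any measured gene within this distance of it. This was likely beforehand, since both were singled out for passing 2-fold, which 14.4% of all genes did, and each had few measured neighbours.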
